A study of Mus musculus with 6 samples.

Results

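NF-kB is a family of transcription factors that drives inflammatory and survival genes after injury, and 10 of its genes are described here: the subunit genes Nfkb1, Nfkb2, Rela and Relb, the inhibitor and feedback genes Nfkbia, Nfkbiz, Bcl3, Tnfaip3 and Birc3, and the ligand gene Tnf. They were chosen by symbol from the 37620 genes of the deposited count table, and each matched 1 row. The samples were pieces of heart apex from C57/BL6J mice of wild-type (WT) genotype, taken 120 min into reperfusion that followed 30 min of ischaemia, with 3 samples in each of 2 groups. Mice of the dexmedetomidine group were first given yohimbine's vehicle (yohimbine blocks alpha-2 adrenergic receptors), 30 min later dexmedetomidine, a sedative that activates these receptors, at 10 µg/kg, and 20 min after that the surgery. The vehicle group received the vehicle of each of the 2 agents before surgery, with no times given in the labels. All agents were infused into the tail vein within 10 min. Both groups were thus operated and both carried the vehicle of yohimbine, and no unoperated hearts were analysed here, so a value says nothing of the level before injury. Neither the animals' age nor whether each sample is its own animal is stated in the labels, and the spread behind each p-value, which is that between samples, may be technical.

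In resting cells, NF-kB dimers are held in the cytoplasm by IkB proteins. Signals from TNF, interleukin-1 and Toll-like receptors activate the IkB kinase complex, which marks IkB alpha, the product of Nfkbia, for destruction and frees the dimers to enter the nucleus. Among the genes they switch on are their own brakes, Nfkbia and Tnfaip3, and the subunit genes Nfkb1, Nfkb2 and Relb. In a slower branch, the kinase NIK (Map3k14) and the IkB kinase subunit alpha (Chuk) have the Nfkb2 product p100 cut to p52, the partner of RelB. In the heart, cardiomyocytes, endothelium and immune cells are all known to use the pathway during reperfusion.

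The DNA in front of these genes is shown for the sequence motif that NF-kB binds. Promoter sequences (250 bases before to 50 bases from the transcription start on, RefSeq, GRCm38.p6) were matched by symbol for 7 of the 10 genes, with 10 promoters among them. Sequences of Nfkb1, Relb and Nfkbiz were not used here. The NF-kB consensus of 10 bases, searched on both strands, was found in promoters of 4 of these 7 genes, namely Nfkbia, Nfkb2, Bcl3 and Tnfaip3, and in none for Rela, Birc3 and Tnf. Of all 32851 promoters of the same length, 5.81% held a match, and of all 27025 genes 6.55% had at least 1 promoter with a match. A match is a description of letters and shows no binding, and the lack of a match does not show that a gene has no site. The promoters below, read 5′ to 3′ along each gene's strand, were chosen to set 4 promoters with a match beside that of Rela, which has none. Capitals mark the consensus matches, which begin 29 bases before the start in Nfkbia, 39 and 11 bases before it in Nfkb2, 12 bases before it in Tnfaip3 and at base 3 of the Bcl3 transcript.
Nfkbia, chr12:55492598-55492897, minus strand: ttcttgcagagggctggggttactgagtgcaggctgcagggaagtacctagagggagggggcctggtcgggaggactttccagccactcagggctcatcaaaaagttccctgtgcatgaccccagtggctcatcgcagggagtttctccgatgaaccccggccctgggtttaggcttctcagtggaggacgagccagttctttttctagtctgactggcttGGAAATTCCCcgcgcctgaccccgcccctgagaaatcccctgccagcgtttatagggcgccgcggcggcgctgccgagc
Nfkb2, chr19:46304487-46304786, plus strand: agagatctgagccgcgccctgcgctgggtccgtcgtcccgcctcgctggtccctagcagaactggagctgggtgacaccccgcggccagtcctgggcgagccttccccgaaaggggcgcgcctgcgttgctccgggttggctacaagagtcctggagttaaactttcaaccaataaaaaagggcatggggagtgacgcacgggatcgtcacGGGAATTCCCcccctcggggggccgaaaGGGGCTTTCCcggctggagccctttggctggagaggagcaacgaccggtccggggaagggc
Bcl3, chr7:19822706-19823005, minus strand: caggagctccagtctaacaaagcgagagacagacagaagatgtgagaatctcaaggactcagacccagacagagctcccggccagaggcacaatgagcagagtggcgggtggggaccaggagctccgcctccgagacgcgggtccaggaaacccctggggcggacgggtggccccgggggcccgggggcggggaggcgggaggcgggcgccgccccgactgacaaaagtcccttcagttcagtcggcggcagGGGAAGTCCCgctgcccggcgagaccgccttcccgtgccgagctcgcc
Tnfaip3, chr10:19015361-19015660, minus strand: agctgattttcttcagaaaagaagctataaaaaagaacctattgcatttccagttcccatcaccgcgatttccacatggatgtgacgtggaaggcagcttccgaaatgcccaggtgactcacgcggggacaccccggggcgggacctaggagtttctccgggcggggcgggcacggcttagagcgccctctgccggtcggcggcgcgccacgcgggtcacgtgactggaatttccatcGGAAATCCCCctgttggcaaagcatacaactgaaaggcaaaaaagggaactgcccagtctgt
Rela, chr19:5637291-5637590, plus strand: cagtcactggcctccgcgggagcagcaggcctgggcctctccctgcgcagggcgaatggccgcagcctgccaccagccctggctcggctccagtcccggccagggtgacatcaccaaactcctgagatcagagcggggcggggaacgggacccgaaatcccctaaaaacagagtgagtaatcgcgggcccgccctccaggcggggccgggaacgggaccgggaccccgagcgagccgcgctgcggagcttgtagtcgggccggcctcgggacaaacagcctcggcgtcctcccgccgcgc
A further pair of Nfkb2 promoters share the match GGGACTTTCC, which lies 11 bases into the transcript of the first and 225 bases before the start of the second. A further Tnfaip3 promoter, chr10:19011914-19012213, held no match.

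The libraries held 42.7 to 56.6 M counts in genes. Levels are given as counts per 1e6 (CPM) with TMM (trimmed mean of M-values) library sizes, and differences are log2 fold changes, dexmedetomidine minus vehicle. Libraries stood apart in 2 ways. Vehicle replicate 2 held the most immediate early gene RNA, with Fos at 608 CPM against 21.8 to 60.1 in the other 5 libraries. Dexmedetomidine replicates 2 and 3 held 36.9% and 38.2% of gene counts in mitochondrially encoded genes, against 27.1% in dexmedetomidine replicate 1 and 22.01% to 25.2% after vehicle. The same pair also had the most alignments at more than 1 place, 39.5% and 39.4% of reads counted, against 28.05% to 31.4% in the other 4 libraries. No unaligned reads were among those counted. The part of these features in the results below was not tested, beyond the values given with libraries left out.

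Of the 10 genes, 8 had a log2 fold change below 0, as did 49.7% of all genes tested, led by the subunit genes Nfkb2 (1.42-fold) and Rela (1.38-fold) and the nuclear IkB family gene Bcl3 (1.36-fold), while Tnfaip3 and Birc3 were level. No difference passed the test. In edgeR's quasi-likelihood test 0 of 10 had an adjusted p under 0.05, as did 0.00% of the 14738 genes tested. At an unadjusted p under 0.05 there was 1 of 10, Nfkb2, on the lower side, where 9.03% of all genes lay. DESeq2 called 0 of 10 and limma-voom with quality weights called 2, Nfkb2 and Rela, against 2.66% and 5.31% of all genes called lower. At an unadjusted p under 0.05 on that side, DESeq2 had 2 members (9.64% of all genes), limma-voom 4 (14.6%), edgeR with nuclear genes only in the library sizes 3 (10.5%) and edgeR with no filter 2 (6.84%). The median log2 fold change of the 10 was -0.27, beside 0.0032 over all genes. In simulated counts modelled on these libraries, the edgeR test called 7.46% of genes changed 1.5-fold and 43.3% of those changed 2-fold. Differences of the size seen in the members can thus be missed.

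**Figure D1:**
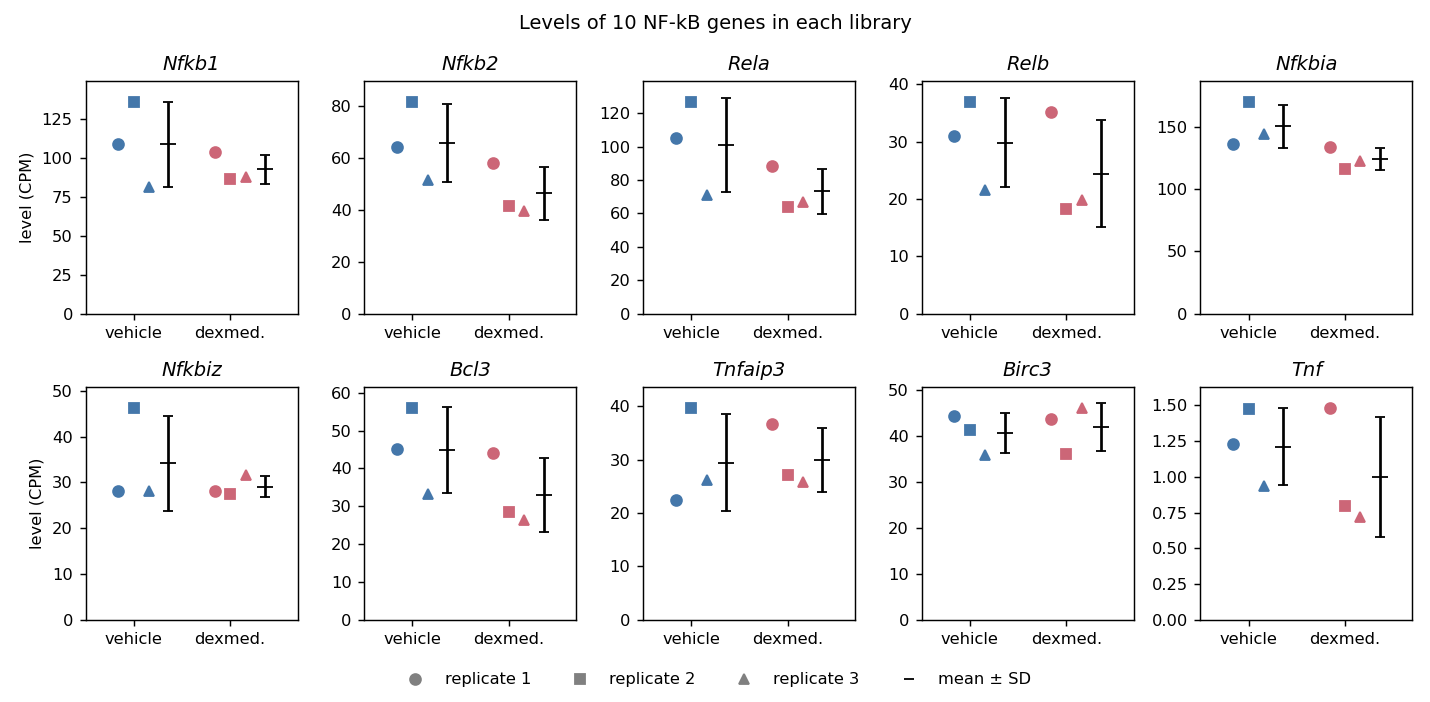
Level in CPM (linear axes from 0) of each of the 10 genes in the 3 vehicle (blue) and 3 dexmedetomidine (red) libraries, with marker shape for the replicate number and the mean ± SD in black. Vehicle replicate 2 is the highest library for 8 genes, and the groups overlap in every panel but that of Nfkbia, where the lowest vehicle library is at 137 CPM and the highest dexmedetomidine library at 134 CPM.

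Rela codes for p65, the subunit that carries the main activation domain of the classical dimer. Replicates 1, 2 and 3 stood at 105, 127 and 70.9 CPM after vehicle and at 88.6, 64.1 and 67.1 CPM after dexmedetomidine, the order used for each gene. The groups overlapped, since vehicle replicate 3 lay below dexmedetomidine replicate 1. Rela had a log2 fold change of -0.46 (SE 0.22, edgeR adjusted p = 0.254). Without vehicle replicate 3 it was -0.66 (adjusted p = 0.0413), and Rela was the only member called in any of the 6 edgeR fits that left out 1 library, where 2.19% of all genes were called lower.

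Nfkb2 codes for p100, which is both a precursor of p52 and an IkB-like inhibitor. Its levels were 64.3, 81.6 and 51.6 CPM after vehicle and 58.0, 41.5 and 39.7 CPM after dexmedetomidine. Dexmedetomidine replicates 2 and 3 lay below every vehicle library, and replicate 1 lay inside the vehicle range. The log2 fold change was -0.50 (SE 0.20, edgeR adjusted p = 0.189), with values from -0.70 to -0.32 when 1 library was left out. In the GRCm38 annotation 299 bases of its exons overlap those of Psd and 531 those of AC114539.1, both on the opposite strand. With strand setting and annotation not stated, reads there could belong to those genes or have been left out as ambiguous.

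Nfkb1 codes for p105 and its product p50, the usual partner of p65. It measured 109, 136 and 81.1 CPM after vehicle and 104, 86.5 and 87.9 CPM after dexmedetomidine. Vehicle replicate 3 was the lowest of the 6 libraries, so the groups overlapped fully (log2 fold change -0.23, SE 0.18, edgeR adjusted p = 0.50024). Without vehicle replicate 2 the difference was -0.04.

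Relb, the subunit of the slower branch, had dexmedetomidine libraries on both sides of the vehicle mean. Its levels were 31.0, 36.9 and 21.6 CPM after vehicle and 35.2, 18.2 and 19.8 CPM after dexmedetomidine. Dexmedetomidine replicate 1 thus sat near the highest vehicle library while the other 2 sat below all vehicle libraries. The log2 fold change was -0.29 (SE 0.28, edgeR adjusted p = 0.602), and it was -0.65 without dexmedetomidine replicate 1.

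Nfkbia, the IkB alpha gene, was the member with groups that did not overlap. It measured 137, 170.0 and 145 CPM after vehicle and 134, 116 and 123 CPM after dexmedetomidine. The gap between the nearest libraries was small beside the spread within the groups, and with plain total gene counts in place of TMM the groups overlapped. The log2 fold change was -0.27 (SE 0.13, edgeR adjusted p = 0.250), and -0.18 without vehicle replicate 2. Among all tested genes, 12.0% had dexmedetomidine libraries that all lay below the vehicle libraries, so 1 of 10 members is close to that background.

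Bcl3, a nuclear IkB family member that binds p50 and p52 homodimers, followed the subunit genes. Its levels were 45.3, 55.9 and 33.3 CPM after vehicle and 44.1, 28.5 and 26.4 CPM after dexmedetomidine, with replicate 1 inside the vehicle range and replicates 2 and 3 below it. Bcl3 had a log2 fold change of -0.44 (SE 0.24, edgeR adjusted p = 0.325), which went from -0.71 without dexmedetomidine replicate 1 to -0.25 without vehicle replicate 2. In the GRCm38 annotation 161 of its exon bases overlap the antisense gene Gm16175.

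Nfkbiz codes for IkB zeta, a nuclear cofactor induced by interleukin-1 and Toll-like receptor signals. Its level was 46.2 CPM in vehicle replicate 2 and between 27.4 and 31.7 CPM in the other 5 libraries. The log2 fold change of -0.23 (SE 0.20, edgeR adjusted p = 0.536) rested on that library, for without it the value was 0.05.

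Tnfaip3 codes for A20, an enzyme that edits ubiquitin chains and shuts off signalling upstream of the IkB kinase. It measured 22.4, 39.7 and 26.3 CPM after vehicle and 36.8, 27.2 and 25.9 CPM after dexmedetomidine. The highest library of each group lay well above the other 2, and the means were 29.4 ± 9.06 and 29.96 ± 5.93 CPM (SD, n = 3 each). Its log2 fold change was 0.03 (SE 0.23, edgeR adjusted p = 0.963), and it lay between -0.15 and 0.30 with 1 library left out.

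Birc3 codes for cIAP2, a ubiquitin ligase of the TNF receptor complex that also marks NIK for destruction. Its levels were 44.5, 41.5 and 35.97 CPM after vehicle and 43.8, 36.2 and 46.1 CPM after dexmedetomidine. The means were 40.7 ± 4.33 and 42.05 ± 5.18 CPM (SD, n = 3 each) with overlapping groups, and the log2 fold change was 0.05 (SE 0.14, edgeR adjusted p = 0.875).

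Tnf, the ligand that starts the cascade, was scarce. It stood at 1.23, 1.47 and 0.934 CPM after vehicle and 1.48, 0.796 and 0.719 CPM after dexmedetomidine, from 28 to 76 counts per library. Its log2 fold change was -0.27 (SE 0.42, edgeR adjusted p = 0.754). The SE was larger than the difference, which could not be told from 0. The value was -0.68 without dexmedetomidine replicate 1.

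**Figure D2:**
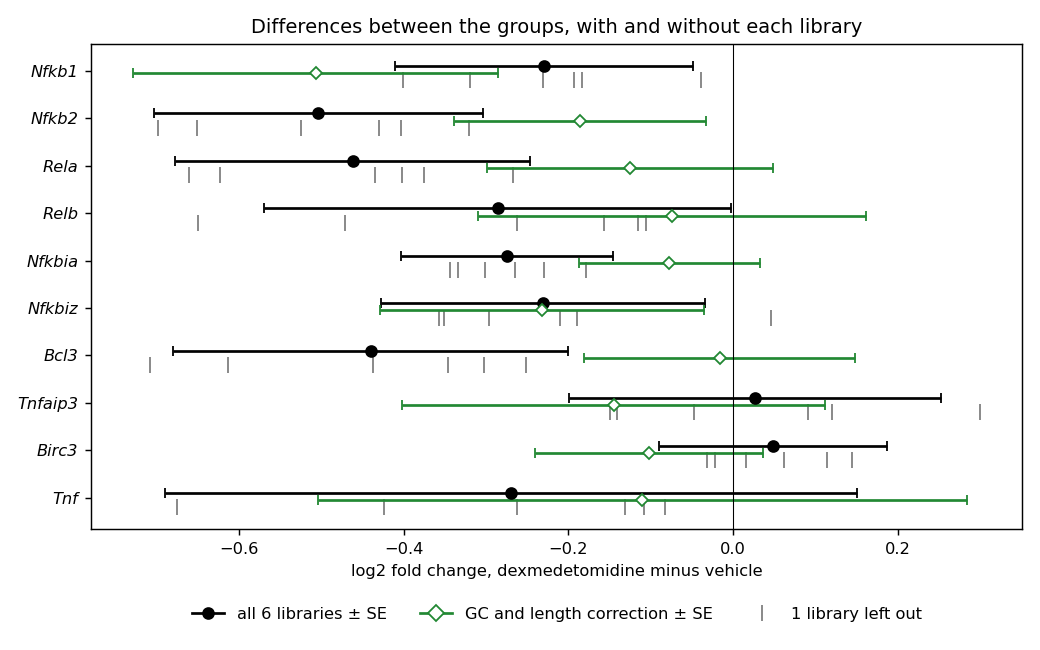
Log2 fold change (dexmedetomidine minus vehicle) of each gene with its SE from all 6 libraries (black circles) and with the trend of each library with GC content and length removed (green diamonds). Grey ticks are the values with 1 library left out, which lie on both sides of 0 for Nfkbiz, Tnfaip3 and Birc3 and below 0 for the other 7 genes.

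Most members had their highest value in the same library, while the library with the lowest value differed between them. Vehicle replicate 2 was the highest library for 8 of the 10, while this held for 26.1% of the genes tested. Dexmedetomidine replicates 2 and 3 lay below all 3 vehicle libraries for 6 of 10, Nfkb2, Rela, Relb, Nfkbia, Bcl3 and Tnf, against 22.2% of all genes. Dexmedetomidine replicate 1 lay within the vehicle range for 8 of 10, against 47.7% of all genes. In log2 CPM centred on the 6 libraries, the mean over the 10 genes was 0.10, 0.45 and -0.16 for replicates 1, 2 and 3 after vehicle, while after dexmedetomidine it was 0.16, -0.30 and -0.25. Vehicle replicate 2, which leads here, is the library with the high Fos level, and Egr1 was also highest there, at 633 CPM against 141 to 242 CPM elsewhere. Members with an unadjusted p under 0.05, on the lower side, numbered 1 without vehicle replicate 1 (7.01% of all genes), 0 without vehicle replicate 2 (5.14%) and 4 without vehicle replicate 3 (11.7%). They numbered 5 without dexmedetomidine replicate 1 (11.3%), 0 without replicate 2 (4.72%) and 0 without replicate 3 (4.06%).

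**Figure D3:**
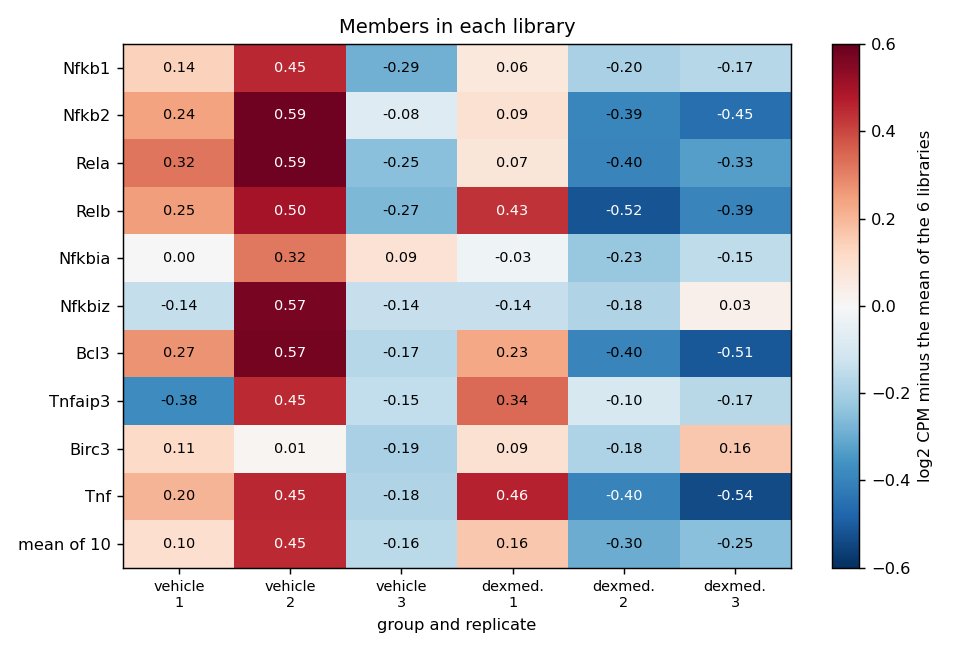
Log2 CPM of each member minus its mean over the 6 libraries, by group and replicate, with the mean of the 10 genes in the last row (red above, blue below the mean). The column of vehicle replicate 2 is red for most genes (mean 0.45), and dexmedetomidine replicate 1 (mean 0.16) resembles vehicle replicate 1 (0.10) more than dexmedetomidine replicates 2 and 3 (-0.30 and -0.25).

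Levels can be set against each other only per length, here as CPM per kilobase of the deposited gene length. Nfkbia was the most abundant, at 95.4 ± 11.02 CPM per kilobase after vehicle (SD, n = 3), followed by Rela at 37.2 ± 10.3, Nfkb1 at 22.7 ± 5.71, Nfkb2 at 20.0 ± 4.58 and Bcl3 at 18.0 ± 4.54. Birc3 (8.12 ± 0.865), Relb (7.67 ± 1.98) and Nfkbiz (6.81 ± 2.07) did not differ beyond their spread. Tnfaip3 stood at 4.07 ± 1.25 and Tnf at 0.739 ± 0.164 CPM per kilobase. Rela exceeded Nfkb1 and Nfkb1 exceeded Nfkb2 in 6 of 6 libraries, although their ranges over libraries overlapped, and Nfkb2 exceeded Bcl3 in 5 of 6. The ratio of Nfkbia to Rela per kilobase, which does not depend on library scaling, was 2.69 ± 0.717 after vehicle and 2.96 ± 0.309 after dexmedetomidine (SD, n = 3 each). It was highest in vehicle replicate 3, at 3.51, and the groups overlapped.

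Within the sum of the 4 subunit genes per kilobase, the shares of Nfkb1 and Nfkb2 did not overlap between the groups, and those of Rela and Relb did. Nfkb1 made up 25.6%, 25.9% and 26.3% of the sum after vehicle and 26.7%, 30.6% and 30.5% after dexmedetomidine. Every dexmedetomidine library lay above every vehicle library, with most of the distance in replicates 2 and 3. Nfkb2 made up 21.9%, 22.7% and 24.4% after vehicle and 21.8%, 21.4% and 20.1% after dexmedetomidine. These also did not overlap, with the nearest libraries at 21.9% and 21.8%. Rela made up 42.3% ± 1.49 and 40.5% ± 0.509 and Relb 8.76% ± 0.164 and 9.20% ± 1.74 (SD, n = 3 each). With 3 against 3 libraries an exact two-sided permutation test cannot give a p under 0.1, and these shares were not tested. They are parts of 1 sum, so the higher share of Nfkb1 and the lower share of Nfkb2 are not separate results. By level, and not by share, the groups overlapped for both Nfkb1 and Nfkb2. Over all 14738 genes tested, the levels of 2300 did not overlap on the higher side and of 1774 on the lower. Those are counts of levels and give no background for a share. Nfkb1 is also the subunit gene with the lowest GC content, and the order turns with the GC and length correction described next: the corrected log2 fold change was -0.51 for Nfkb1, -0.19 for Nfkb2, -0.12 for Rela and -0.07 for Relb.

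Fold changes in this series followed GC content over all genes, and the members differ widely in it. In 5 equal bins of genes from low to high GC content of the longest transcript, the median log2 fold change went from 0.47 to -0.30. Bcl3 (62.6% GC), Nfkb2 (59.4%), Rela (59.4%) and Relb (56.8%) lie in the highest bin, while Nfkb1 (44.9%), Birc3 (46.6%) and Tnfaip3 (47.1%) lie in the second lowest, with a bin median of 0.15. When each library's trend with GC content and length was removed, Bcl3 went from -0.44 to -0.02, Rela from -0.46 to -0.12, Nfkb2 from -0.50 to -0.19, Relb from -0.29 to -0.07 and Nfkbia from -0.27 to -0.08. Nfkb1 moved the other way, from -0.23 to -0.51 (SE 0.22, edgeR adjusted p = 0.391), and was then the only member with an unadjusted p under 0.05, where 7.49% of all genes lay on the lower side. Tnfaip3 and Birc3 stood at -0.15 and -0.10. All 10 members were then below 0, with a median of -0.12 beside -0.02 over all genes, and none was called.

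**Figure D4:**
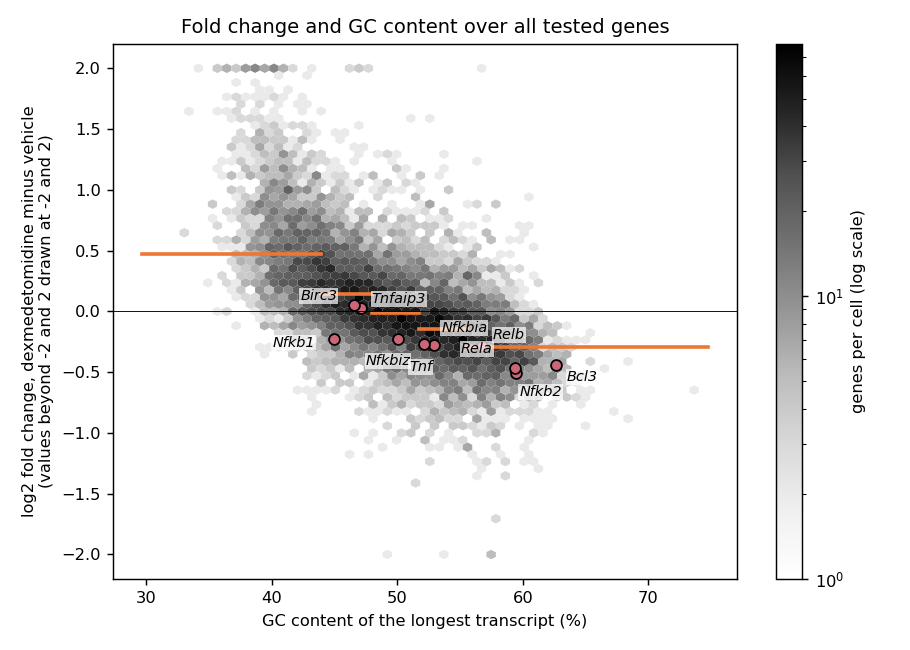
Log2 fold change (dexmedetomidine minus vehicle) against GC content of the longest transcript in percent for all tested genes with a GC value (grey cells, darker for more genes, log colour scale), with the median of each of 5 equal GC bins (orange lines) and the 10 members (red). The bin medians go from 0.47 to -0.30, Nfkb2, Rela and Bcl3 lie below the median of the highest bin and Relb at it, and Nfkb1 lies below its bin's median of 0.15.

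The other genes of the pathway, 80 in 4 lists, lay on both sides of 0, with 36 higher and 44 lower. All 80 were tested and 0 were called by edgeR, while 11 had an unadjusted p under 0.05 on the higher side and 8 on the lower, against 12.5% and 9.03% of all genes. DESeq2 called 6 higher and 1 lower, where 5.97% and 2.66% of all genes were called. The groups did not overlap for 11 of the 80 on the higher side and 6 on the lower, beside 2300 and 1774 of the 14738 genes tested. The median log2 fold change of the 80 was -0.06. The 11 genes on the higher side had GC contents of 38.4% to 48.3% and the 8 on the lower side 54.2% to 60.4%. After the GC and length correction the former lay between -0.21 and 0.32 and the latter between -0.44 and 0.05.

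Receptors and adaptors were lower for 12 of 20. Tlr4, a receptor for bacterial lipopolysaccharide and for molecules released by injured cells, measured 24.3, 18.9 and 22.8 CPM after vehicle and 30.1, 40.7 and 48.1 CPM after dexmedetomidine. The groups did not overlap (log2 fold change 0.85, SE 0.18, edgeR adjusted p = 0.101), and the corrected value was 0.09. Birc2, the cIAP1 gene and close relative of Birc3, was at 24.0 ± 2.497 and 37.2 ± 3.75 CPM (log2 fold change 0.63, edgeR adjusted p = 0.101, 0.26 corrected). Tnfrsf1a, the main TNF receptor gene, was at 162 ± 37.1 and 120.4 ± 13.6 CPM (-0.43, adjusted p = 0.206, -0.19 corrected), with the groups overlapping.

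Kinases and ubiquitin ligases were higher for 11 of 18. Chuk, the IkB kinase subunit alpha of the slower branch, was at 24.8 ± 3.86 and 35.9 ± 4.62 CPM (SD, n = 3 each), with no overlap (log2 fold change 0.54, edgeR adjusted p = 0.114). With the correction it was at -0.03. Map3k7, the TAK1 kinase upstream of the complex, and Cul1, the scaffold of the ligase that targets IkB, had log2 fold changes of 0.44 and 0.47 and corrected values of 0.16 and 0.15. These 3 were among the 6 pathway genes that DESeq2 called higher (DESeq2 adjusted p = 0.0463, 0.04998 and 0.0484, near the threshold) and edgeR did not. The others were Tank, Tlr4 and Birc2 (DESeq2 adjusted p = 0.0025, 0.0029 and 0.0051), and Ier3 was the 1 called lower (DESeq2 adjusted p = 0.036).

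The list of the remaining subunit Rel and further inhibitors held 8 higher and 10 lower. Tank, which binds TRAF proteins and dampens signalling, was at 11.9 ± 2.64 and 21.2 ± 0.616 CPM (log2 fold change 0.83, edgeR adjusted p = 0.101), and at 0.01 with the correction. Otulin, which removes linear ubiquitin chains, and Zc3h12a, the ribonuclease regnase-1, had log2 fold changes of -0.46 and -0.63 with no overlap between the groups, and corrected values of -0.21 and -0.36. For Zc3h12a the nearest libraries were vehicle replicate 3 at 20.7 CPM and dexmedetomidine replicate 1 at 20.1 CPM, with vehicle replicate 2 at 37.7 CPM. Known target genes were lower for 15 of 24 (median -0.13, -0.20 corrected). Ier3, an early response gene, was at 125 ± 48.8 and 74.3 ± 11.1 CPM (-0.75, edgeR adjusted p = 0.159, -0.44 corrected), the adhesion molecule gene Vcam1 at 0.47 (-0.21 corrected) and the caspase-8 inhibitor gene Cflar at 0.31 (-0.08 corrected).

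**Figure D5:**
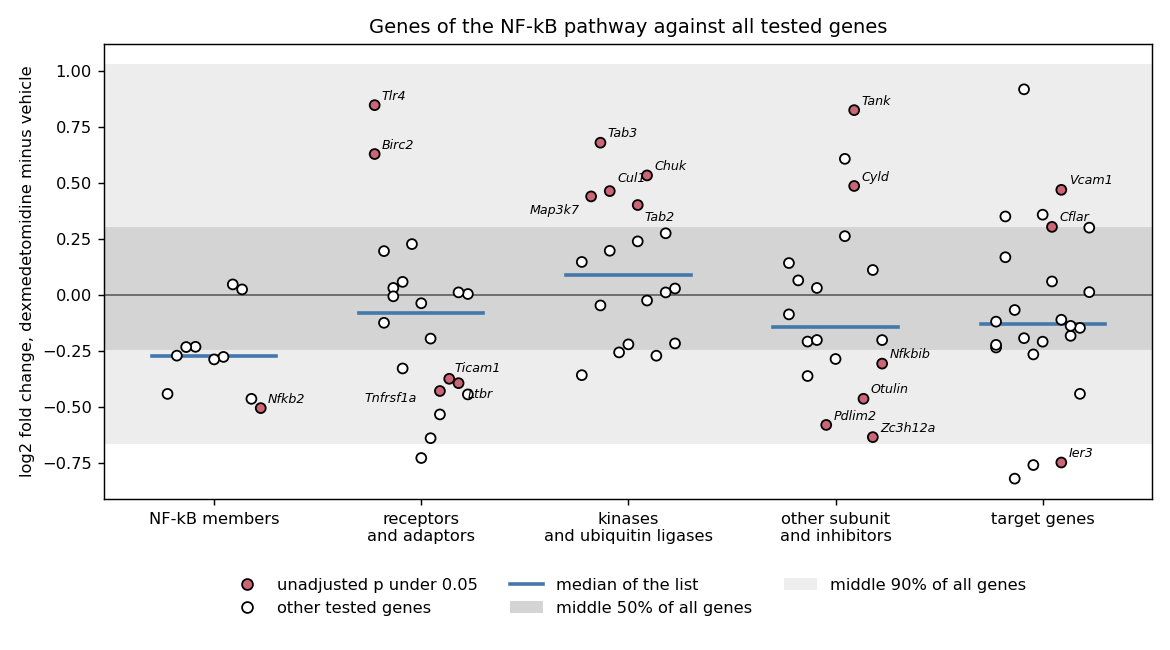
Log2 fold change (dexmedetomidine minus vehicle) of the 10 members and of the 4 pathway lists, each circle a gene, filled where the unadjusted edgeR p is under 0.05, with list medians in blue. Grey bands hold the middle 50% (-0.24 to 0.30) and 90% (-0.66 to 1.03) of all tested genes, and the members have the lowest median (-0.27) of the lists shown. With the GC and length correction, not drawn here, the target genes have the lowest median (-0.20) and the members are at -0.12.

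The tissue label was checked against marker genes. Actc1, cardiac actin, was at 5735 to 8578 CPM in the 6 libraries, and the 8 cardiomyocyte markers summed to 44636 to 52868 CPM after vehicle and 40233 to 44264 CPM after dexmedetomidine, with 6 of 8 lower. In bulk tissue, fewer cells of a type and less RNA per cell cannot be told apart. The 12 leukocyte markers summed to 312 to 368 CPM after vehicle and to 256, 331 and 454 CPM in dexmedetomidine replicates 1, 2 and 3, with none at 0 in any library and 6 of 11 tested higher. The sum is carried by Lyz2, a macrophage and neutrophil gene, at 124 to 187 CPM, and by the neutrophil genes S100a8 and S100a9. Ptprc rose in the same order, at 11.4, 14.5 and 20.9 CPM in dexmedetomidine replicates 1, 2 and 3, as did Csf1r, Adgre1, Cxcr2 and Cd3e. The macrophage gene C1qa did not, at 33.4, 19.97 and 28.5 CPM, and neither did Cd68, Itgam and Cd79a. DESeq2 called 1 leukocyte marker higher, Ptprc (edgeR log2 fold change 0.92), and 1 lower, C1qa (-0.64), where 5.97% and 2.66% of all genes were called. With the GC and length correction Ptprc was at 0.22 and C1qa at -0.20. The 8 endothelial markers summed to 1125 to 1265 and 1120 to 1182 CPM, with 4 of 8 lower, and the 8 fibroblast markers to 943 to 1050.3 and 1159 to 1368 CPM, with 6 of 8 higher. The 7 mural markers summed to 1235 to 1402 and 1592 to 1901 CPM, but 4 of 7 were lower (median log2 fold change -0.15). The higher sum is that of Rgs5 and Abcc9. With the correction Rgs5 went from 0.66 to 0.09 and Abcc9 from 0.34 to 0.12. The median log2 fold change went from 0.40 to 0.08 for fibroblast and from -0.15 to -0.01 for mural markers. It went from 0.09 to 0.22 for leukocyte, -0.20 to -0.22 for cardiomyocyte and -0.02 to -0.01 for endothelial markers. Apart from Lyz2, the leukocyte markers named here were picked after their values were seen, as was Abcc9. Of 5 atrial markers, 2 were at 0 in at least 1 library, and Myl7 and Myl4, picked after their values were seen, were at 11.9 and 25.2 CPM in dexmedetomidine replicate 3. Elsewhere Myl7 was at most at 0.02 CPM and Myl4 at 1.91 CPM. Sln was at 11.1 CPM in that library and at most at 0.02 CPM elsewhere. Nppa and Nr2f2 did not stand out there. Nppa was at 11.7 CPM, with 6.75 to 30.1 CPM elsewhere, and Nr2f2 at 12.9 CPM, with 5.62 to 13.7 CPM elsewhere. Without dexmedetomidine replicate 3 the median log2 fold change of the members was -0.23. The part of these cell types in the members' values was not tested.

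The 5 genes with library profiles most like that of Nfkbia were not on the pathway lists. Those lists hold 80 of the 14738 genes tested, so their absence among 5 genes says little about the pathway. By root mean square difference in centred log2 CPM over the 6 libraries, the nearest were BC034090 (0.025), Aga (0.025), Glmp (0.026), Abcb8 (0.029) and Mybpc3 (0.032), where the median over all tested genes was 0.32. Aga codes for a lysosomal enzyme, Abcb8 for a mitochondrial transporter and Mybpc3 for cardiac myosin binding protein C. After vehicle the centred values of Mybpc3 were 0.047, 0.33 and 0.098 and those of Nfkbia 0.0034, 0.32 and 0.086. After dexmedetomidine they were -0.072, -0.22 and -0.19 for Mybpc3 and -0.025, -0.23 and -0.15 for Nfkbia.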

How the data were processed

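The values are raw counts per Ensembl gene, deposited as 1 table with gene lengths. Of tools, the submitters' processing notes name Trim Galore and HTSeq, and as build mm9. Versions, aligner, annotation and strand setting were not given in the sources used here, and the reference (GENCODE M21, GRCm38) served for symbols, GC content and overlaps only. Symbols matched 32897 of 37620 genes. The 5 summary rows that name no gene stayed out of library sizes and tests. Of the reads counted in genes and these rows together, multiple alignments were 28.05% to 39.5%, no gene 2.33% to 3.63% and ambiguous 1.83% to 2.37%. Unaligned and low-quality reads were at 0. No libraries agreed within sampling noise (chi-square per degree of freedom 31.0 to 479.8).

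Groups came from the labels. All genes were fitted with edgeR 4.0.16 (robust quasi-likelihood, TMM, filterByExpr, 14738 genes) in R 4.3.3, with Benjamini-Hochberg adjustment at 0.05, and the members were read from that fit. The scripts were tested on simulated data. Alternatives were DESeq2 1.42.0, limma-voom (limma 3.58.1) with quality weights, other scalings and filters, a replicate block, leaving out each library, and removal of each library's trend with GC content and length (splines with 5 degrees of freedom, 14329 genes). Log2 CPM used a prior count of 2. Members and lists were chosen with earlier results of these data known. Named were all members, the 3 genes with the smallest p of each pathway list, the 5 profiles nearest Nfkbia, Fos, Egr1 and, of a marker list, the gene with the highest CPM per kilobase.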

Additional observations from a re-analysis of the deposited data

How the results depend on the processing

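Over 15 alternatives, 135 of 149 member values kept their direction and their side of the threshold. Tnf was not tested with a mean CPM of at least 5, which left 9 members. Direction changed 11 times, in 3 genes. The GC and length correction put Tnfaip3 at -0.15 and Birc3 at -0.10, and combined with the replicate block -0.11 and -0.10. Limma-voom put Birc3 at -0.052. With 1 library left out, Tnfaip3 lay between -0.15 and 0.30 (below 0 without vehicle replicate 1, vehicle replicate 3 or dexmedetomidine replicate 1), Birc3 between -0.031 and 0.14 (below 0 without vehicle replicate 3 or dexmedetomidine replicate 3) and Nfkbiz between -0.36 and 0.046 (above 0 without vehicle replicate 2). Nfkbia, whose groups did not overlap with TMM, overlapped with plain total gene counts, a scaling added after seeing the data.

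Genes called over all numbered 0 in edgeR, 406 with no filter, 1272 in DESeq2, 2107 in limma-voom, and 0 to 1251 with 1 library left out (1251 without vehicle replicate 3, 7 and 5 without dexmedetomidine replicates 1 and 2). Members called numbered 2 in limma-voom and 0 to 1 with 1 library left out. Members with an unadjusted p under 0.05 numbered 1 in edgeR, 3 with nuclear genes only in library sizes, 2 with no filter, 2 in DESeq2, 4 in limma-voom, and 0 to 5 with 1 library left out. Pathway genes called numbered 3 with no filter, 7 in DESeq2, 10 in limma-voom, and 0 to 8 with 1 library left out (8 without vehicle replicate 3). The cause was not tested.

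The replicate numbers share no stated batch. Same-numbered libraries of the 2 groups had correlations of -0.05, 0.04 and 0.15, beside -0.19 to 0.15 for pairs with different numbers. With the replicate block edgeR called 636 genes, 118 with the GC and length correction, with 3 members at an unadjusted p under 0.05 on the lower side (8.20% of all genes) and 3 pathway genes called. No member was called with the block.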
